A study of Homo sapiens with 8 samples.

Results

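The RNA helicase DDX6 and 9 of its partners in decapping and P-bodies were followed in 2 human acute myeloid leukaemia cell lines in which DDX6 had been lowered with a short hairpin RNA (shRNA). The 10 genes were taken by symbol from the 61544 entries of the gene count tables: DDX6, DCP2, DCP1A, DCP1B, EDC3, EDC4, PATL1, LSM14A, LSM14B and EIF4ENIF1. Each had 1 entry, and all 10 were among the 16499 genes that passed the filter on low counts. The 4 groups, of 2 libraries each, were HEL cells with DDX6 shRNA, HEL cells with control shRNA, MOLM-13 cells with DDX6 shRNA and MOLM-13 cells with control shRNA. HEL derives from an erythroleukaemia and keeps red-cell and platelet-precursor traits; MOLM-13 derives from a monocytic leukaemia with a KMT2A fusion. Each model is thus 1 established line. In all 4 groups the hairpin came from a lentivirus and transduced cells were kept by puromycin, so the control cells carry a vector as well. No source used here gives the hairpin sequences; the HEL columns number their DDX6 hairpin and the MOLM-13 columns do not, so it is unknown whether both lines received the same one. The question is how the messages for the machinery around DDX6 stood when DDX6 itself was lowered, and how they stood in each line without that.

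P-bodies are cytoplasmic granules that hold untranslated mRNAs together with the enzymes that remove the cap of a message. DCP2 cuts the cap, DCP1A and DCP1B are alternative activating subunits, and EDC3 and EDC4 enhance the reaction as scaffolds. DDX6 joins these proteins to translational repressors: LSM14A and LSM14B, the scaffold PATL1, and 4E-T, the product of EIF4ENIF1, which binds the cap-binding protein eIF4E. In human cells, DDX6, LSM14A and 4E-T are each needed for P-bodies to assemble.

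Total counts lay between 10719829 and 12093544 in the HEL libraries, and between 7888318 and 8174432 in the MOLM-13 libraries. The labels do not say that replicates came from separate cultures, so the spread behind every p-value may be technical. That spread was estimated from all 4 groups of 2 libraries together. It was drawn towards the spread of other genes (median of 40 prior degrees of freedom, beside 4 residual ones). The MOLM-13 control libraries stood further apart than the others: their chi-square per degree of freedom over genes was 3.69, against 1.46 to 1.77 for the other 3 pairs. The lines matched their labels. All 11 tested erythroid and megakaryocytic markers were higher in HEL control than in MOLM-13 control libraries, and all 13 myelomonocytic markers were lower; HBE1 and HBG1 had 0 counts in all 4 MOLM-13 libraries, and MPO had 0 counts in all 4 HEL libraries. Among other cell types, the summed level of 10 lymphoid markers was 256 to 264 CPM (counts divided by the TMM-scaled size of their library) in HEL DDX6 shRNA and 188 to 195 CPM in HEL control libraries, and 1450 to 1470 CPM in MOLM-13 DDX6 shRNA against 821 to 890 CPM in MOLM-13 control libraries. The summed level of 8 stromal, endothelial and epithelial markers was 328 to 336 CPM in HEL DDX6 shRNA and 264 to 269 CPM in HEL control libraries, and 527 to 569 CPM in MOLM-13 DDX6 shRNA against 276 to 283 CPM in MOLM-13 control libraries. A single gene carries most of each sum: CD4 averaged 221.4 CPM in HEL DDX6 shRNA, 176.5 CPM in HEL control, 1249 CPM in MOLM-13 DDX6 shRNA and 734.1 CPM in MOLM-13 control libraries. PECAM1 averaged 256.9, 209.0, 532.2 and 262.7 CPM in the same groups. Both genes were thus expressed in the control libraries of both lines, and whether the sums reflect other cells was not tested. COL3A1 fell in MOLM-13, at 1.65 CPM in DDX6 shRNA and 4.79 CPM in control libraries. Of the lymphoid list, CD3E and CD3G were at 0 counts in HEL control and in MOLM-13 DDX6 shRNA libraries. CD3D averaged 44.9 CPM in MOLM-13 DDX6 shRNA and 6.25 CPM in MOLM-13 control libraries. CD79B averaged 21.9 CPM in HEL DDX6 shRNA and 7.04 CPM in HEL control libraries. In MOLM-13 it averaged 18.5 CPM in DDX6 shRNA and 3.50 CPM in control libraries. Under DDX6 shRNA, 3 of 6 tested lymphoid markers rose and 0 fell in HEL, and 4 of 6 rose and 0 fell in MOLM-13; of 7 tested stromal markers, 4 rose and 0 fell in HEL, and 2 rose and 1 fell in MOLM-13. Of the lines' own markers, 5 of 11 erythroid and megakaryocytic genes rose and 1 fell in HEL, and 3 of 13 myelomonocytic genes rose and 2 fell in MOLM-13. Over all genes tested, 20.7% rose and 14.1% fell in HEL, and 18.1% rose and 14.3% fell in MOLM-13. The part of these markers in the results was not tested.

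Of the members called lower under DDX6 shRNA in both lines (DDX6, LSM14A and DCP2), the sequence around the RefSeq start site is shown for DDX6 and DCP2, which have an entry. The call of DCP2 in MOLM-13 was lost under 13 of 15 alternatives. Each window runs from 250 bases before to 50 bases after the start (RefSeq, GRCh38.p14), 5′ to 3′ on the gene's strand, at chr11:118791115-118791414 on the minus strand for DDX6 and chr5:112976548-112976847 on the plus strand for DCP2. For DDX6, the table holds 3 start sites and the one nearest to the annotated gene start is given. Capitals mark matches to any of 6 motifs, searched on both strands: the GC box GGGCGG, the CCAAT box, the ETS factor core CGGAAG, the TATAAA box, the E-box CACGTG and the NRF1 motif.
DDX6: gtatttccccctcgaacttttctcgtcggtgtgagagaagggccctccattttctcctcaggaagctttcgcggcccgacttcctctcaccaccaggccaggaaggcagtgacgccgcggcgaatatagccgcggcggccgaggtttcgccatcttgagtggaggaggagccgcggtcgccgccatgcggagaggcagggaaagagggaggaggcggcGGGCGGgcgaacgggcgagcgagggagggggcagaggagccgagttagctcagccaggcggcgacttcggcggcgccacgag
DCP2: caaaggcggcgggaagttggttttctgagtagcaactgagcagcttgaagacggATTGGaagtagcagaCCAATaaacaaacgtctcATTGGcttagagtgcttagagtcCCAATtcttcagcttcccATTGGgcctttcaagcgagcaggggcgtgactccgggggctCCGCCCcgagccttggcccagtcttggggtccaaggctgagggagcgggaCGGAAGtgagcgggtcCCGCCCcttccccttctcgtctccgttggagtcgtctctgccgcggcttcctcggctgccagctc
The DDX6 window held 1 GGGCGG and none of the other motifs. The DCP2 window held 5 CCAAT, 2 GGGCGG and 1 CGGAAG, none overlapping another. Of the 9 members with an entry, 8 held GGGCGG, 5 held CGGAAG, 2 held CCAAT (DCP2 and LSM14B), 1 held the NRF1 motif (PATL1) and 0 held either the TATAAA box or the E-box. The share of all 35116 promoter windows with each motif was 45% for GGGCGG, 19.5% for CGGAAG, 34.6% for CCAAT, 5.78% for the NRF1 motif, 11.5% for TATAAA and 7.26% for CACGTG.

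DDX6 (ENSG00000110367, chromosome 11, 118747766 to 118791149, minus strand, GRCh38) is the targeted gene and was measured first. It stood at 96.8 and 94.8 CPM in the HEL DDX6 shRNA libraries, against 176.7 and 179.8 CPM in the HEL control libraries. In MOLM-13 it stood at 67.9 and 74.2 CPM in the DDX6 shRNA libraries, against 126 and 121.7 CPM in the control libraries. Every DDX6 shRNA library lay below every control library of its line, and the reduced level in HEL stayed under the MOLM-13 control level as well. Relative to control, 53.8% of the message was left in HEL and 57.4% in MOLM-13, so the knockdown was partial. In such bulk libraries, fewer cells of a type and less RNA per cell cannot be told apart. Every change is tested with the quasi-likelihood method of edgeR, its p adjusted by Benjamini-Hochberg over all genes tested and called under 0.05. For DDX6 this gave a log2 fold change of -0.90 ± 0.07 (SE; edgeR adjusted p = 3.54e-14) for HEL. The value for MOLM-13 was -0.80 ± 0.08 (edgeR adjusted p = 2.56e-11). DDX6 was the most strongly lowered of the 10 genes in both lines, and its fall kept its call under all 15 alternatives tried in each. Larger falls were fitted for other genes: counted from the lowest log2 fold change of 16499, DDX6 had rank 508 in HEL and rank 1142 in MOLM-13. The 2 pseudogenes named after DDX6 had 0 counts in every library.

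**Figure D1:**
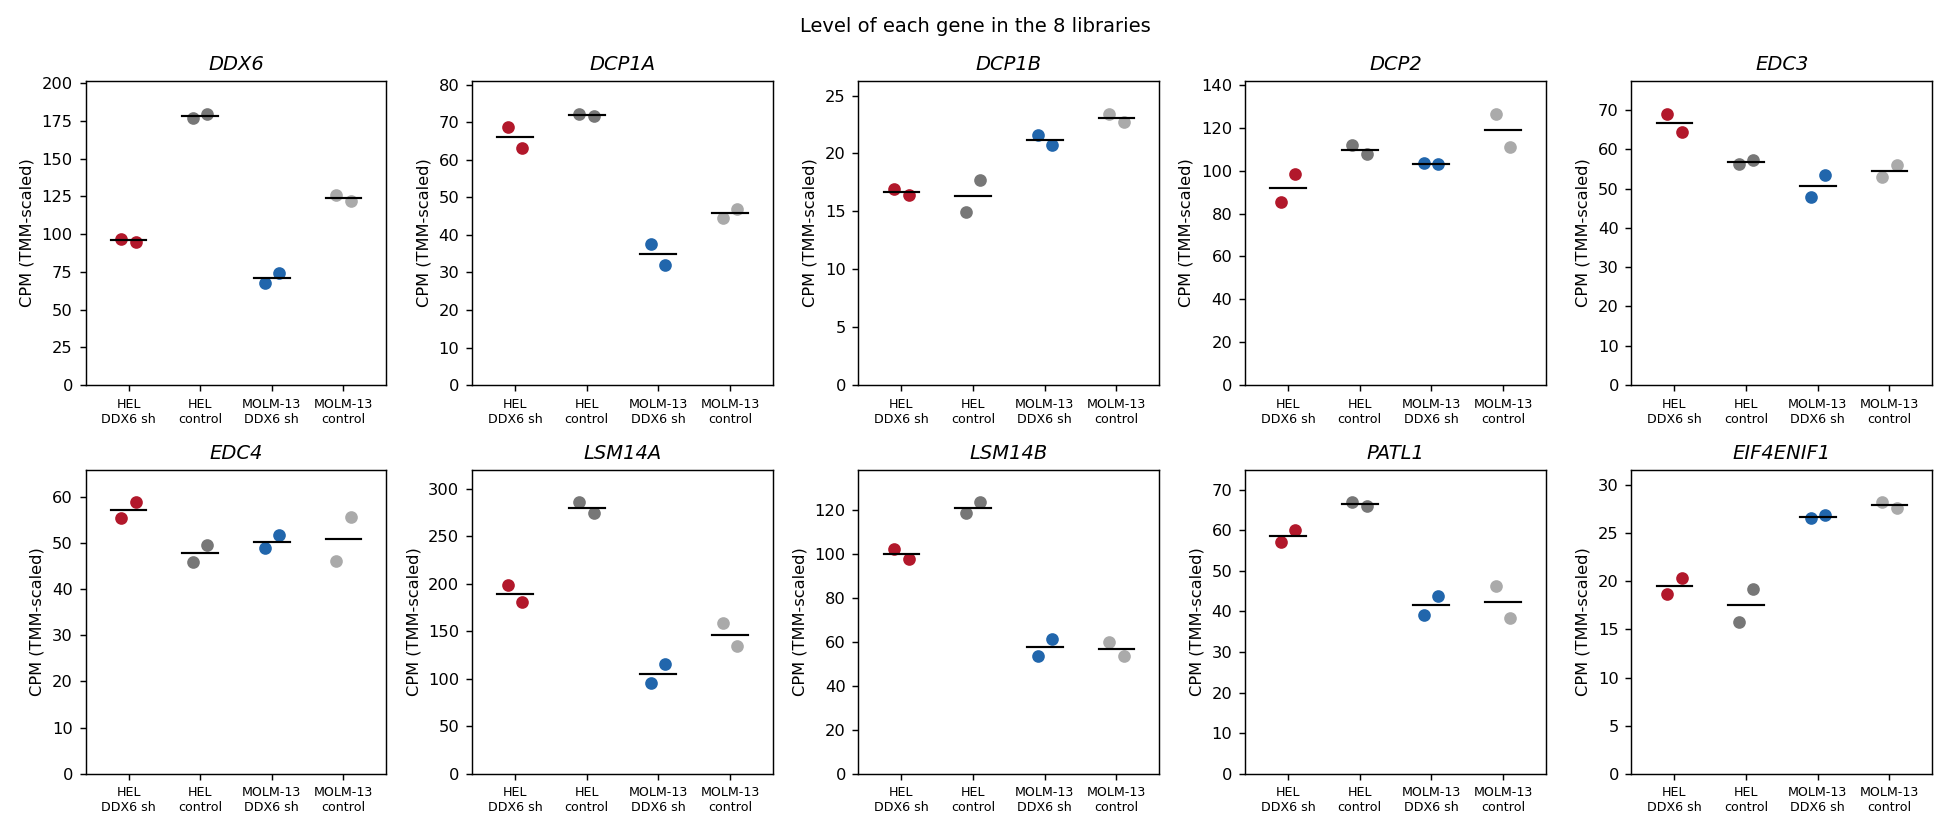
Level of each of the 10 genes (CPM after TMM scaling, vertical axis from 0) in the 8 libraries, by group; points are libraries and short lines the mean of 2. DDX6 lies at 94.8 to 96.8 CPM in HEL DDX6 shRNA and 176.7 to 179.8 CPM in HEL control libraries, and LSM14A is lower under DDX6 shRNA in both lines.

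Beyond the targeted gene, 5 of the 9 partners changed in HEL, 3 lower and 2 higher, and 3 of 9 changed in MOLM-13, all lower. Of all genes tested, 34.8% were called in HEL (14.1% lower and 20.7% higher) and 32.4% in MOLM-13 (14.3% lower and 18.1% higher). The median log2 fold change of the 9 partners was -0.12 in HEL and -0.10 in MOLM-13, beside 0.03 and 0 over all genes tested. DDX6 shRNA and control libraries did not overlap for 8 of the 10 genes in HEL and 6 of 10 in MOLM-13, where 67.3% (29.9% all lower, 37.5% all higher) and 60.2% (29.2% all lower, 31% all higher) of all genes tested did not overlap. In HEL, 6 of the members lay all lower and 2 all higher; in MOLM-13, 6 lay all lower and 0 all higher. Calls in the same direction in both lines were those of DDX6, LSM14A and DCP2, of which DCP2 kept its MOLM-13 call in 2 of 15 alternatives, and DCP1B, PATL1 and EIF4ENIF1 were called in neither.

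**Figure D2:**
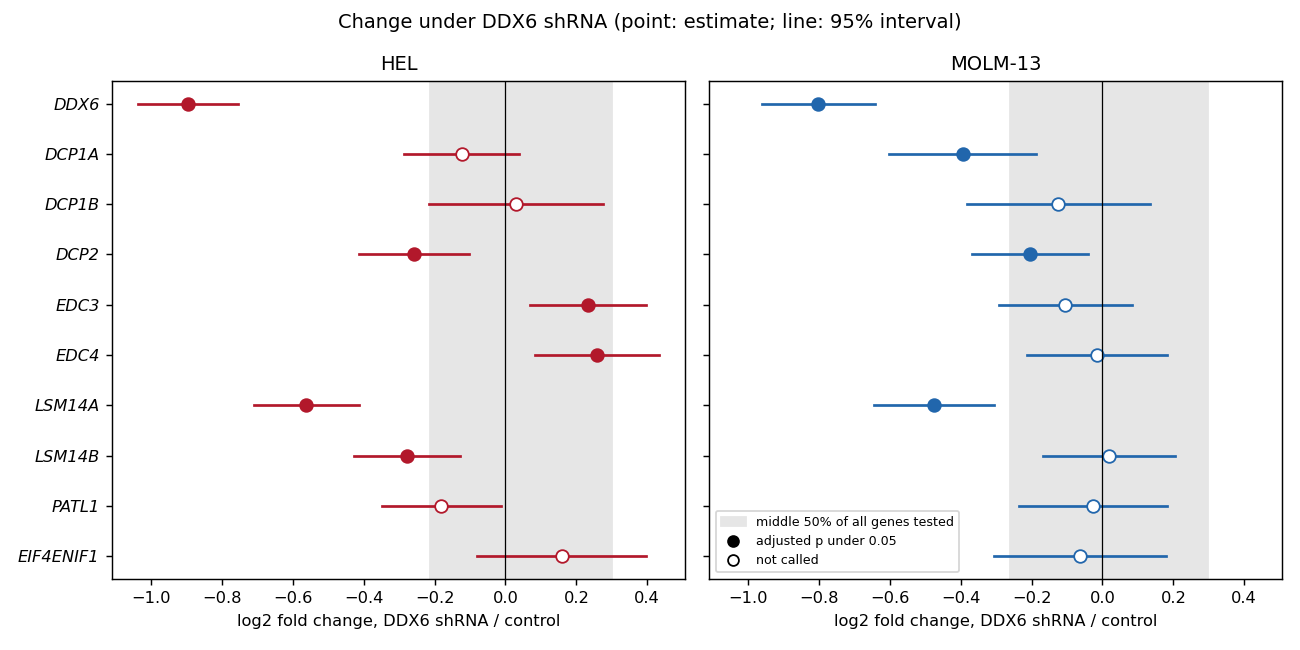
Log2 fold change of each gene, DDX6 shRNA over control, in HEL (left) and MOLM-13 (right); points are estimates, filled where adjusted p is under 0.05, lines are 95% intervals and the grey band is the middle 50% of all genes tested. DDX6 and LSM14A lie left of the band in both lines, and EDC3 and EDC4 lie right of 0 in HEL.

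LSM14A (ENSG00000257103, chromosome 19, 34172504 to 34229515, plus strand) encodes the RNA-binding repressor that DDX6 binds directly. Its level was 198.3 and 181.4 CPM in HEL DDX6 shRNA libraries, against 285.9 and 274.6 CPM in HEL control libraries. In MOLM-13 it was 95.1 and 115.5 CPM in DDX6 shRNA libraries, against 158.4 and 134.6 CPM in control libraries. The groups did not overlap in either line. LSM14A fell to 67.7% of control in HEL (log2 fold change -0.56 ± 0.07, edgeR adjusted p = 4.28e-08) and to 71.9% in MOLM-13 (-0.48 ± 0.08, edgeR adjusted p = 1.35e-05). This was the largest fitted change of any partner in both lines, although DCP1A fell further in MOLM-13 without DDX6 shRNA replicate 1 (LSM14A -0.32, DCP1A -0.50) or control replicate 1 (LSM14A -0.35, DCP1A -0.42). LSM14A was the only partner that passed the test in each line under all 15 alternatives, with log2 values between -0.63 and -0.50 in HEL and between -0.62 and -0.32 in MOLM-13.

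LSM14B (ENSG00000149657, chromosome 20, 62122461 to 62135378, plus strand), the paralog of LSM14A, was lower in HEL. It had 102.2 and 97.8 CPM in HEL DDX6 shRNA libraries, against 118.8 and 123.7 CPM in HEL control libraries. It had 53.8 and 61.3 CPM in MOLM-13 DDX6 shRNA libraries, against 59.9 and 53.7 CPM in MOLM-13 control libraries. The groups were apart in HEL and overlapped in MOLM-13. LSM14B fell by 0.28 ± 0.07 on the log2 scale in HEL (edgeR adjusted p = 0.00255), a call lost without HEL control replicate 2 (adjusted p = 0.0634) or HEL DDX6 shRNA replicate 2 (adjusted p = 0.0593). In MOLM-13 its log2 fold change was 0.02 (95% interval -0.17 to 0.21, edgeR adjusted p = 0.919).

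Because the paralogs moved by unequal amounts, their ratio per length differed between groups. LSM14A over LSM14B, each as CPM per kb of exon, was 1.38 and 1.32 in HEL DDX6 shRNA libraries, against 1.71 and 1.58 in HEL control libraries. In MOLM-13 the ratio was 1.26 and 1.34 in DDX6 shRNA libraries, against 1.88 and 1.79 in control libraries. In both lines the DDX6 shRNA libraries had the lower ratio and did not overlap with control; the ratio itself was not tested.

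**Figure D3:**
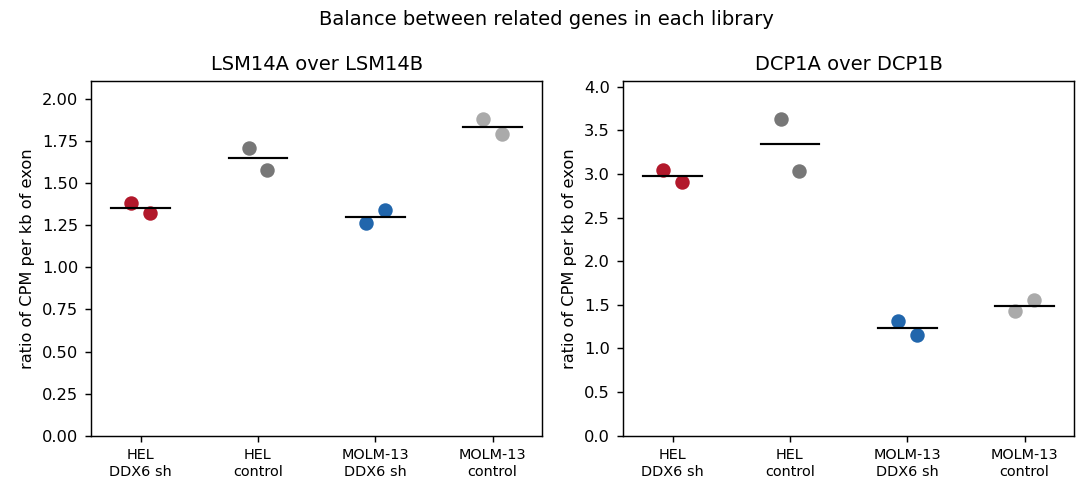
Ratio of LSM14A to LSM14B (left) and DCP1A to DCP1B (right), each gene as CPM per kb of exon, in every library (points) with the mean of 2 (short lines). LSM14A over LSM14B is 1.26 to 1.38 in DDX6 shRNA libraries and 1.58 to 1.88 in control libraries.

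Among the decapping genes, the catalytic subunit gene DCP2 (ENSG00000172795, chromosome 5, 112976702 to 113020970, plus strand) was lower by a smaller amount. It had 85.3 and 98.5 CPM in HEL DDX6 shRNA libraries, against 112 and 107.6 CPM in HEL control libraries. In MOLM-13 it had 103.4 and 103 CPM in DDX6 shRNA libraries, against 126.6 and 111.2 CPM in control libraries. The groups did not overlap in either line, although the HEL DDX6 shRNA libraries and the MOLM-13 control libraries each differed by more than 10 CPM. DCP2 fell by 0.26 ± 0.08 on the log2 scale in HEL (edgeR adjusted p = 0.00715), a call lost without HEL control replicate 1 (adjusted p = 0.11) or HEL DDX6 shRNA replicate 1 (adjusted p = 0.276, log2 fold change -0.16). In MOLM-13 the log2 fold change was -0.20 ± 0.08 and the edgeR adjusted p was 0.0496, so close to the threshold that 13 of 15 alternatives lost the call; without MOLM-13 control replicate 1 it was -0.10 (adjusted p = 0.391), and with a replicate block -0.20 (adjusted p = 0.0816).

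The activator genes DCP1A and DCP1B gave different results from each other. DCP1A (ENSG00000272886, chromosome 3, 53283428 to 53347610, minus strand) had 37.6 and 32.0 CPM in MOLM-13 DDX6 shRNA libraries, against 44.6 and 47.0 CPM in MOLM-13 control libraries. In HEL it had 68.7 and 63.3 CPM in DDX6 shRNA libraries, against 72.4 and 71.6 CPM in control libraries. The DDX6 shRNA libraries were the lower ones in both lines. DCP1A fell by 0.39 ± 0.10 on the log2 scale in MOLM-13 (edgeR adjusted p = 0.00232), a call lost without MOLM-13 DDX6 shRNA replicate 2 (adjusted p = 0.118). In HEL its log2 fold change of -0.12 (95% interval -0.29 to 0.04) missed the threshold (edgeR adjusted p = 0.244), but it passed with each line fitted alone (adjusted p = 0.0319) and without MOLM-13 control replicate 1 (adjusted p = 0.0499). DCP1B (ENSG00000151065, chromosome 12, 1946054 to 2004535, minus strand) had 17.0 and 16.4 CPM in HEL DDX6 shRNA against 14.98 and 17.7 CPM in HEL control libraries. It had 21.6 and 20.7 CPM in MOLM-13 DDX6 shRNA against 23.4 and 22.7 CPM in MOLM-13 control libraries. Neither change passed the test. In HEL the log2 fold change was 0.03 (95% interval -0.21 to 0.28), and MOLM-13 gave -0.12 (95% interval -0.38 to 0.13). DCP1A over DCP1B per kb was 3.05 and 2.91 in HEL DDX6 shRNA libraries against 3.63 and 3.04 in HEL control libraries, and 1.31 and 1.16 in MOLM-13 DDX6 shRNA against 1.43 and 1.56 in MOLM-13 control libraries.

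The enhancer genes EDC3 and EDC4 were the members called higher, both in HEL. EDC3 (ENSG00000179151, chromosome 15, 74630558 to 74696292, minus strand) had 69.1 and 64.3 CPM in HEL DDX6 shRNA libraries, against 56.3 and 57.4 CPM in HEL control libraries. EDC4 (ENSG00000038358, chromosome 16, 67873023 to 67884503, plus strand) had 55.4 and 58.8 CPM in HEL DDX6 shRNA libraries, against 46.0 and 49.5 CPM in HEL control libraries. For both genes the HEL DDX6 shRNA libraries lay above the control ones. EDC3 rose by 0.23 ± 0.08 on the log2 scale (edgeR adjusted p = 0.0223) and EDC4 by 0.26 ± 0.09 (edgeR adjusted p = 0.0181). These are among the least secure calls of the set: DESeq2 made neither (adjusted p = 0.109 for EDC3 and 0.104 for EDC4), and each was lost without either HEL control library (replicate 1: 0.152 for EDC3 and 0.21 for EDC4; replicate 2: 0.113 and 0.0522). EDC3 was also lost without HEL DDX6 shRNA replicate 1 (0.259), without a filter on low counts (0.06) and on leaving out MOLM-13 DDX6 shRNA replicate 1 (0.0611) or 2 (0.0623). EDC4 was also lost without HEL DDX6 shRNA replicate 2 (0.155) and on leaving out MOLM-13 DDX6 shRNA replicate 1 (0.0572) or 2 (0.0569).

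In MOLM-13, EDC3 had 47.8 and 53.6 CPM in DDX6 shRNA libraries, against 52.9 and 56.0 CPM in control libraries. EDC4 had 48.8 and 51.7 CPM there in DDX6 shRNA libraries, against 46.0 and 55.6 CPM in control libraries. Both pairs of groups overlapped. The log2 fold changes were -0.10 (95% interval -0.29 to 0.08) for EDC3 and -0.02 (-0.21 to 0.18) for EDC4. EDC3 shares 13.7% of its exon bases with CLK3 on the opposite strand, and EDC4 shares 21.2% with the noncoding gene AC040162.3 on the same strand, so reads of these neighbours could not be told apart where the counting did not separate them.

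The scaffold gene PATL1 and the 4E-T gene EIF4ENIF1 were not called in either line. PATL1 (ENSG00000166889, chromosome 11, 59636716 to 59668980, minus strand) had 57.2 and 60.2 CPM in HEL DDX6 shRNA libraries, against 66.9 and 66.1 CPM in HEL control libraries. It had 39.2 and 43.7 CPM in MOLM-13 DDX6 shRNA libraries, against 46.2 and 38.3 CPM in MOLM-13 control libraries. The HEL groups were apart and the MOLM-13 groups overlapped. The HEL log2 fold change of -0.18 (95% interval -0.35 to -0.01) had an edgeR adjusted p of 0.0896, and PATL1 was called lower in HEL under 5 of 15 alternatives: upper-quartile scaling (0.0418), each line fitted alone (0.00519), and without MOLM-13 control replicate 1 (0.00782), MOLM-13 control replicate 2 (0.00798) or MOLM-13 DDX6 shRNA replicate 2 (0.0497). EIF4ENIF1 (ENSG00000184708, chromosome 22, 31436977 to 31496108, minus strand) had 18.7 and 20.4 CPM in HEL DDX6 shRNA against 15.8 and 19.2 CPM in HEL control libraries, and 26.6 and 26.9 CPM in MOLM-13 DDX6 shRNA against 28.2 and 27.6 CPM in MOLM-13 control libraries. Its log2 fold change had a 95% interval of -0.08 to 0.40 in HEL, and in MOLM-13 one of -0.30 to 0.18.

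The change in HEL minus that in MOLM-13 passed the edgeR test for 0 of the 10 genes, where 15.1% of all genes tested were called (7.59% higher, 7.53% lower), and DESeq2 also called 0. At an unadjusted p under 0.05 there were 4: LSM14B, with a difference of -0.30 ± 0.12 on the log2 scale (edgeR adjusted p = 0.0836), EDC3 (0.34 ± 0.12, edgeR adjusted p = 0.0585), EDC4 (0.27 ± 0.13, edgeR adjusted p = 0.166) and DCP1A (0.27 ± 0.13, edgeR adjusted p = 0.169). As reported, the calls in 1 line alone are therefore not shown to be particular to that line. For some genes the size of the difference rested in part on the MOLM-13 control libraries that stood apart. Without MOLM-13 control replicate 1, it was -0.42 for LSM14B and 0.36 for EDC4. For EDC3 it hardly moved, at 0.33 against 0.34 with all libraries. For LSM14A it was then -0.25, against -0.09 with all libraries. Without MOLM-13 DDX6 shRNA replicate 1, the difference for LSM14B was -0.44. Each such fit leaves 1 library in a group. The trend of each library on mRNA GC content was also removed, a step tried after seeing the data. The difference then passed for EDC3 (0.32, edgeR adjusted p = 0.0313) and LSM14B (-0.33, edgeR adjusted p = 0.0214). For DDX6 itself the difference was -0.09 (95% interval -0.31 to 0.12, edgeR adjusted p = 0.636).

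The control libraries give the baseline. Per kb of exon, which allows genes to be compared, LSM14A had the highest level of the set in both lines, at 59.0 ± 1.68 CPM per kb in HEL control and 30.9 ± 3.55 CPM per kb in MOLM-13 control libraries (SD, n = 2), followed by LSM14B at 35.9 ± 1.02 and 16.8 ± 1.30. In HEL control the order then ran DDX6 (15.6), PATL1 (15.5), DCP1A (11.8), EDC3 (11.1), DCP2 (11.03), EDC4 (7.73), DCP1B (3.55) and EIF4ENIF1 (2.88 CPM per kb). Libraries of neighbours in that order overlapped for DDX6 and PATL1 and for EDC3 and DCP2. In MOLM-13 control it ran DCP2 (11.95), DDX6 (10.8), EDC3 (10.7), PATL1 (9.88), EDC4 (8.23), DCP1A (7.47), DCP1B (5.004) and EIF4ENIF1 (4.59 CPM per kb), with libraries of neighbours overlapping from DDX6 through DCP1A. These levels depend on the length used. With mean transcript length all 20 levels of the members in the control groups moved by more than their spread: DDX6 stood at 56.6 CPM per kb in HEL control and 39.3 CPM per kb in MOLM-13 control libraries, and with the longest coding transcript at 28.97 and 20.1 CPM per kb. LSM14A stayed highest in both lines under both alternatives. In MOLM-13 control, EDC3 (48.1) and DCP2 (43.9) lay above LSM14B (42.1 CPM per kb) with mean transcript length, and DCP1B (10.3) lay above DCP1A (7.64 CPM per kb) with the longest coding transcript.

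**Figure D4:**
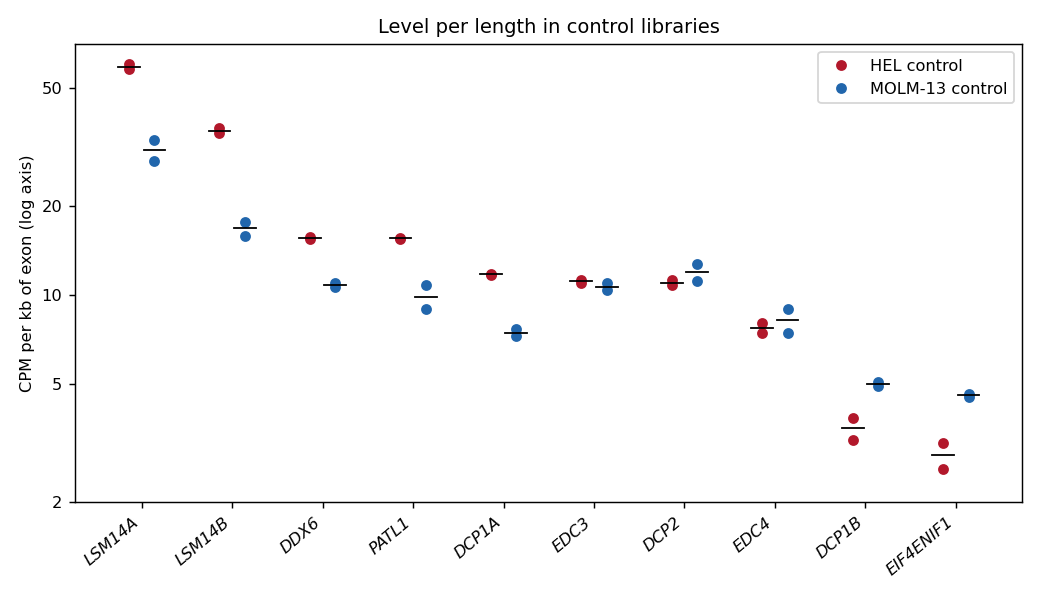
Level per length (CPM per kb of exon, log axis) of the 10 genes in the HEL and MOLM-13 control libraries, ordered by the HEL mean; points are libraries and short lines the mean of 2. By this length, LSM14A and LSM14B stand highest in both lines, and DCP1B and EIF4ENIF1 are lowest.

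Between the lines, 7 of the 10 genes differed in the control libraries, 5 higher and 2 lower in HEL, against 81.2% of all genes tested (40.8% higher, 40.4% lower), so a difference between these lines was usual. The libraries of the 2 lines did not overlap for 8 of the 10, 6 all higher and 2 all lower, against 89.8% of all genes tested (45.2% all higher, 44.6% all lower). Higher in HEL control were LSM14A, LSM14B, PATL1, DCP1A and DDX6. LSM14B was higher by 1.09 ± 0.08 on the log2 scale (121.3 CPM in HEL control, 56.8 CPM in MOLM-13 control) and LSM14A by 0.94 ± 0.08 (280.2 and 146.5 CPM). PATL1 was higher by 0.65 ± 0.09, DCP1A by 0.65 ± 0.09 and DDX6 by 0.53 ± 0.07, all 5 with edgeR adjusted p of at most 1.77e-08. EIF4ENIF1 was lower in HEL control (log2 difference -0.67 ± 0.12, edgeR adjusted p = 1.97e-06), as was DCP1B (-0.50 ± 0.12, edgeR adjusted p = 0.000322). DCP2 (-0.11), EDC3 (0.06) and EDC4 (-0.09) did not pass the test. Line differences moved with base composition. With the same GC trend removed, the difference for DDX6 was 0.04 (edgeR adjusted p = 0.518). For DCP2 it was -0.73, for EDC3 0.27 and for EDC4 0.34. LSM14B (1.38), LSM14A (0.48), PATL1 (0.50) and DCP1A (0.38) stayed higher in HEL control.

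The mRNAs themselves differ in length and base composition, which the choice of genes did not use. By the principal transcript of GENCODE 29, DCP2 had the lowest GC content (37.3%) and the longest 3′ UTR (7486 bases, with 24 ATTTA pentamers), followed by DDX6 (40%, 4339 bases and 9 pentamers). LSM14A had 40.4% GC and a 3′ UTR of 2127 bases with 3 pentamers, and DCP1A had 44.1% GC and one of 4152 bases with 10 pentamers. EDC4 had the highest GC content (59.8%), with a 3′ UTR of 355 bases, followed by LSM14B (55.1%, 1230 bases) and EDC3 (53.4%, 2037 bases). The shortest 3′ UTR was that of DCP1B (152 bases). All of these 4 and EIF4ENIF1 had 0 pentamers. The 4 members called lower in MOLM-13 were thus the 4 of lowest GC content. Of these, DDX6 is the targeted gene, and DCP2 lost its call under 13 of 15 alternatives. In HEL the members called lower included the same DDX6, LSM14A and DCP2, but also LSM14B at 55.1%, while the members called higher, EDC3 and EDC4, lay at 53.4% and 59.8%. Over all protein-coding genes, the median mRNA GC content was 47.6% for genes called lower, 50.5% for genes called higher and 49.3% for genes not called in HEL. In MOLM-13 it was 49.8%, 52.1% and 48.4% in the same order. The median 3′ UTR length, again in that order, was 1356, 1027 and 1020 bases in HEL. In MOLM-13 it was 975, 1061 and 1110 bases. Pentamer counts were neither scaled by length nor compared with those of all genes. With the GC trend of each library removed, the calls in HEL were those reported for all 10 genes (log2 fold change -0.87 for DDX6, -0.54 for LSM14A, 0.21 for EDC3 and 0.23 for EDC4). In MOLM-13 DCP2 alone lost its call (-0.15, adjusted p = 0.0699), and DDX6 (-0.79), LSM14A (-0.46) and DCP1A (-0.38) kept theirs.

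**Figure D5:**
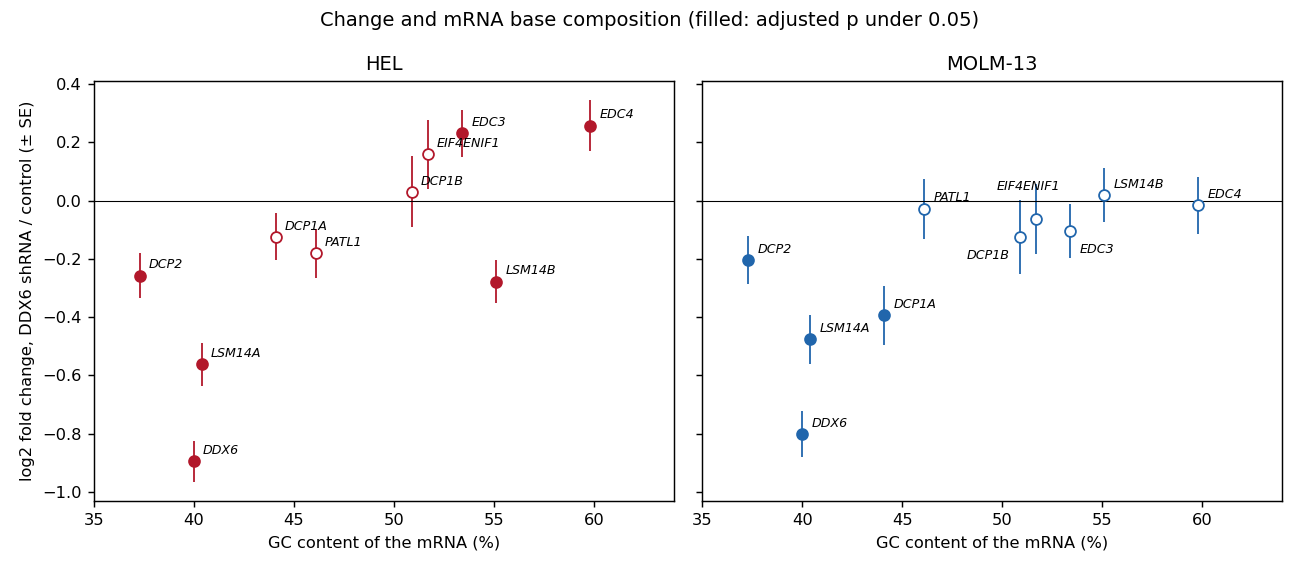
Log2 fold change (DDX6 shRNA over control, ± SE) against the GC content of the principal mRNA for the 10 genes in HEL (left) and MOLM-13 (right); filled points have adjusted p under 0.05. In MOLM-13 the 4 filled points lie between 37.3% and 44.1% GC; in HEL EDC3 and EDC4, at 53.4% and 59.8%, are above 0 and LSM14B, at 55.1%, is below it.

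Outside the 10 genes, the message levels of other factors of the pathway moved in both directions. Of 16 genes for further steps of cap removal and 5′ to 3′ decay (the LSM1 to LSM7 ring, the exonuclease XRN1 and others), 3 rose and 5 fell in HEL, and 0 rose and 4 fell in MOLM-13, with a median log2 fold change of 0.03 in HEL and -0.01 in MOLM-13. Over all genes tested 20.7% rose and 14.1% fell in HEL, and 18.1% rose and 14.3% fell in MOLM-13. LSM6, a subunit of the LSM ring that binds the 3′ end of deadenylated mRNA, fell by 0.51 ± 0.10 in HEL (edgeR adjusted p = 3.58e-05) and by 0.53 ± 0.10 in MOLM-13 (edgeR adjusted p = 2.61e-05). In HEL, PNRC1 fell by 0.63 ± 0.12 and the cap hydrolase gene NUDT3 by 0.60 ± 0.14. PATL2, the paralog of PATL1, rose there by 0.74 ± 0.21, at 6.15 CPM in DDX6 shRNA and 3.67 CPM in control libraries. The largest edgeR adjusted p of these genes was 0.00452. NUDT3 shares 71.6% of its exon bases with AL354740.1 on the opposite strand and 43.3% with RPS10-NUDT3 on the same strand. In MOLM-13, LSM3 fell by 0.36 ± 0.08, LSM2 by 0.29 ± 0.09 and the decapping exonuclease gene DXO, which overlaps STK19 on the opposite strand, by 0.43 ± 0.15 (largest edgeR adjusted p = 0.0215). LSM3 instead rose in HEL, by 0.24 ± 0.07, and the difference between the lines passed the test (0.60 ± 0.10, edgeR adjusted p = 3.89e-05), as did that of PNRC1 (-0.76 ± 0.15, edgeR adjusted p = 0.000249). The HEL count rested on single libraries, with 4 of 16 called without HEL control replicate 2, and 5 each without HEL control replicate 1, HEL DDX6 shRNA replicate 1 or HEL DDX6 shRNA replicate 2, in place of 8. In MOLM-13, 2 were called without DDX6 shRNA replicate 2, in place of 4.

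Of 26 tested genes for translational repressors and other P-body residents linked to DDX6, 7 rose and 6 fell in HEL, and 7 rose and 5 fell in MOLM-13, with median log2 fold changes of -0.01 in HEL and 0.06 in MOLM-13. The share called among all genes tested was 34.8% in HEL and 32.4% in MOLM-13. GIGYF1, a scaffold of 4EHP-mediated repression, fell by 0.53 ± 0.09 in HEL and by 0.60 ± 0.08 in MOLM-13 (largest edgeR adjusted p = 4.37e-06). In HEL, EIF4E2, which encodes the cap-binding repressor 4EHP, rose by 0.48 ± 0.07 and CPEB4, an RNA-binding regulator of polyadenylation, by 0.60 ± 0.09. The ataxin-2-like gene ATXN2L fell there by 0.43 ± 0.07 (largest edgeR adjusted p of these genes = 5.17e-06). EIF4E2 shares 16.6% of its exon bases with AC073254.1 on the opposite strand. In MOLM-13, CPEB4 also rose, by 0.51 ± 0.17 (edgeR adjusted p = 0.0197), and ATXN2L also fell, by 0.24 ± 0.08 (edgeR adjusted p = 0.0168). In MOLM-13, MOV10, an RNA helicase of microRNA effector complexes, rose to 61.9 CPM in DDX6 shRNA against 31.9 CPM in control libraries (log2 fold change 0.96 ± 0.10, edgeR adjusted p = 2.25e-10). The decay-promoting factor gene ZFP36L2 rose there by 0.60 ± 0.08 and EIF4E3 by 0.57 ± 0.13 (largest edgeR adjusted p = 0.000586). In HEL, MOV10 also rose, by 0.29 ± 0.08 (edgeR adjusted p = 0.00274). EIF4E3 was called higher there as well (log2 fold change 1.5 ± 0.53, edgeR adjusted p = 0.0237). It had 1.06 CPM in DDX6 shRNA and 0.361 CPM in control libraries. The control level lay near the floor, as 3 counts equal 0.2481 and 0.2645 CPM in the HEL control libraries. Among the genes named here, the difference between the lines passed the test for MOV10 (-0.66 ± 0.13, edgeR adjusted p = 0.000198). It also passed for EIF4E2 (0.42 ± 0.10, edgeR adjusted p = 0.00306) and ZFP36L2 (-0.47 ± 0.12, edgeR adjusted p = 0.00468). In HEL 8 of 26 were called without DDX6 shRNA replicate 2, in place of 13. In MOLM-13, 7 were called with DESeq2, 7 without control replicate 2, 7 without DDX6 shRNA replicate 1 and 5 without DDX6 shRNA replicate 2, in place of 12.

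Genes with a pattern like that of DDX6 over the 8 libraries were ranked by the root mean square difference between centred log2(CPM + 1) values, among 8251 genes with a mean of at least 20 CPM. The nearest were POLR2M (0.052), which shares 21.1% of its exon bases with GCOM1, the linker histone gene H1-10 (0.079), the uracil-DNA glycosylase gene UNG (0.105), BLOC1S6 (0.112) and C2orf68 (0.131). H1-10, for example, averaged 73.1 CPM in HEL DDX6 shRNA, 139.2 CPM in HEL control, 50.5 CPM in MOLM-13 DDX6 shRNA and 95.6 CPM in MOLM-13 control libraries. It shares 22.9% of its exon bases with H1FX-AS1 on the opposite strand. Of the partners, LSM14A was nearest to DDX6 (0.273), followed by DCP1A (0.354) and PATL1 (0.379), and EIF4ENIF1 was farthest (0.684).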

How the data were processed

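RNA sequencing was done on 8 libraries, 2 in each of 4 groups. Each cell line has 1 deposited table with raw counts for every gene and library, per the file headers. The labels' protocols name miRNeasy Micro for extraction and NEBNext Ultra II for library preparation. STAR, SAMtools 1.12, DESeq2 and build GRCh38 appear in the submitters' processing notes, without role or order. The counter, annotation release, strand setting and treatment of multiply matching reads are not given there, so overlapping genes may share reads. Columns were matched to samples by line, shRNA and replicate number.

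All 8 libraries were fitted together with a mean per group and no covariate (4 residual degrees of freedom), using edgeR 4.0.16 in R 4.3.3 with filterByExpr (minimum count 10), TMM scaling and the quasi-likelihood test. Calls were made at 0.05 after Benjamini-Hochberg adjustment over 16499 genes. The SE is the absolute log2 fold change divided by the square root of F, and 95% intervals use the test's degrees of freedom. Those include prior degrees of freedom shared across genes, with a median of 40. The fit was also run on counts simulated with its own estimates of spread. That check cannot show whether those estimates hold for these libraries. CPM is TMM-scaled; levels per kb use the union of exons in GENCODE 29. Alternatives were DESeq2 1.42.0, other scalings, no filter, lines fitted alone, a replicate block, leaving out each library, other lengths and removal of a GC trend. GC content was known for 87% of tested genes, and the others received no correction.

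Named genes were all 10 members, up to 4 called genes with the smallest adjusted p per pathway list and line, and the 5 genes most like DDX6. Members and lists were chosen with earlier results of these data known.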

Additional observations from a re-analysis of the deposited data

How the results depend on the processing

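The falls of DDX6 and LSM14A in both lines kept their direction and their side of the threshold under all 15 alternatives. The number of members called was 6 in HEL (3 to 8 when each library was left out in turn), 4 in MOLM-13 (2 to 4) and 0 for the difference between lines (0 to 4, and 2 with the GC trend removed, tried after seeing the data). HEL dropped to 3 without HEL control replicate 1 or 2, and MOLM-13 to 2 without MOLM-13 DDX6 shRNA replicate 2. Between the control groups the number called was 7. With the GC trend removed, DDX6 lost its call there, and DCP2, EDC3 and EDC4 were called. EDC4 turned from a log2 difference of -0.09 to 0.34, higher in HEL control (edgeR adjusted p = 0.000132). EDC3 moved from 0.06 to 0.27 (edgeR adjusted p = 0.00152). The cause was not tested. Upper-quartile scaling moved the median log2 difference of all genes between the control groups to -0.12, and DCP2 (-0.24) and EDC4 (-0.21) were then called lower in HEL control.

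For the 16 cap removal and decay genes, 8 calls in HEL became 5 with DESeq2 and 4 to 9 with a library left out, and 4 calls in MOLM-13 became 2 to 5. For the 26 repressor and P-body genes, 13 calls in HEL became 8 to 14 with a library left out, and 12 calls in MOLM-13 became 7 with DESeq2 and 5 to 15 with a library left out. Over all genes tested, 5739 calls in HEL became 3561 with DESeq2 and 3723 to 6771 with a library left out, and 2495 calls for the difference became 1494 and 1511 to 3238. Where a group kept 1 library, it was assumed to vary like the others.

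Replicate numbers are shared between groups, but nothing says that they pair the samples: the correlation of deviations between same-numbered libraries was 0.0425 in HEL and -0.0254 in MOLM-13. With a replicate block, 6 members were called in HEL, 3 in MOLM-13, 0 for the difference and 7 between the control groups; the call of DCP2 in MOLM-13 was the one lost. Of the 45 pairs of members, 41 (HEL) and 38 (MOLM-13) kept the reported order of level per length with mean transcript length, and 43 and 41 with the longest coding transcript. Depth limits the members of lowest count, DCP1B and EIF4ENIF1, whose 95% intervals span about 0.5 on the log2 scale.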
